A study of Homo sapiens with 97 samples.

Results

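RNA labelled by an APEX2 fusion that the labels call NIK and place in the nucleolus was compared with RNA labelled by an APEX2 fusion named NLS and placed in the nucleus. The comparison rests on 8 of the 97 libraries of the series, chosen by their column names in the table of poly(A)-selected counts: 2 NIK labelled, 2 NIK unlabelled, 2 NLS labelled and 2 NLS unlabelled libraries. All 8 came from HEK293T, a human embryonic kidney cell line, stably expressing the fusion, and all cells took up biotin-phenol for 30 min. Labelled cells then received 1 mM hydrogen peroxide for 1 min, and unlabelled cells did not. No drug was given in these groups. NIK and NLS libraries come from different cell lines, so their unlabelled libraries were compared as well. Of 60675 gene identifiers, 22680 had enough counts to be tested. The same table holds 4 libraries of another fusion, LMA, which the labels place at the nuclear lamina, and another table holds 2 nuclear and 2 cytosol fraction libraries made without labelling.

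APEX2 is an engineered peroxidase that, given peroxide, turns biotin-phenol into a short-lived radical, which biotinylates molecules close to the enzyme so that they can be pulled down. The nucleolus is the nuclear body where RNA polymerase I transcribes ribosomal RNA, where small nucleolar RNAs guide its modification and where ribosomal subunits are assembled. Most nucleolar RNAs carry no poly(A) tail, so poly(A)-selected libraries mainly show which messenger RNAs and long noncoding RNAs were biotinylated by each fusion. Per the labels, short RNAs were recovered poorly.

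The 8 libraries held 19932630 to 45056249 counts. The NIK labelled libraries stood apart from the other 6. Counts per 1000000 are written as CPM. Of the 11862 genes that averaged 5 CPM or more over the 36 libraries of the table, 6.06% and 2.94% had no count in the 2 NIK labelled libraries, against 0.00843% and 0% in the NLS labelled ones. The NIK unlabelled libraries lacked 0.177% and 0.0169% of these genes, and the NLS unlabelled ones lacked 1.19% and 0.135%. Over the 34 libraries other than NIK labelled the share ran from 0% to 5.02%, and 5 of them were over 2%. Across the 5052 genes that averaged 50 CPM or more, the log2 CPM of the 2 NIK labelled libraries correlated at 0.786. This was the lowest value of the 18 groups, against 0.982 for NLS labelled, and it applies to the genes used below. A missing count in NIK labelled libraries therefore does not show that an RNA was absent. For this reason, and because its dispersion was smaller, the values below come from a fit chosen after seeing the data. It covers the 5052 genes that averaged 50 CPM or more, called well-expressed here, and is used unless all 22680 tested genes are named. Of the kidney and neuronal markers expected of the line, NEFM, NEFL and CDH2 lay between 33.6 and 172 CPM in all 8 libraries, PAX2, NEFH and LHX1 lay between 0 and 8.20 CPM, and PAX8 had no count in any. GATA3 had 3 and 0 counts in NIK labelled libraries and 4.32 to 13.96 CPM in the other 6. Of 14 markers of other cell types, 9 had no count in any of the 8 libraries, and the 14 summed to 13.95 and 6.08 CPM in NIK labelled, 9.17 and 12.9 in NIK unlabelled, 10.9 and 12.1 in NLS labelled and 6.04 and 5.49 in NLS unlabelled libraries.

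**Figure D1:**
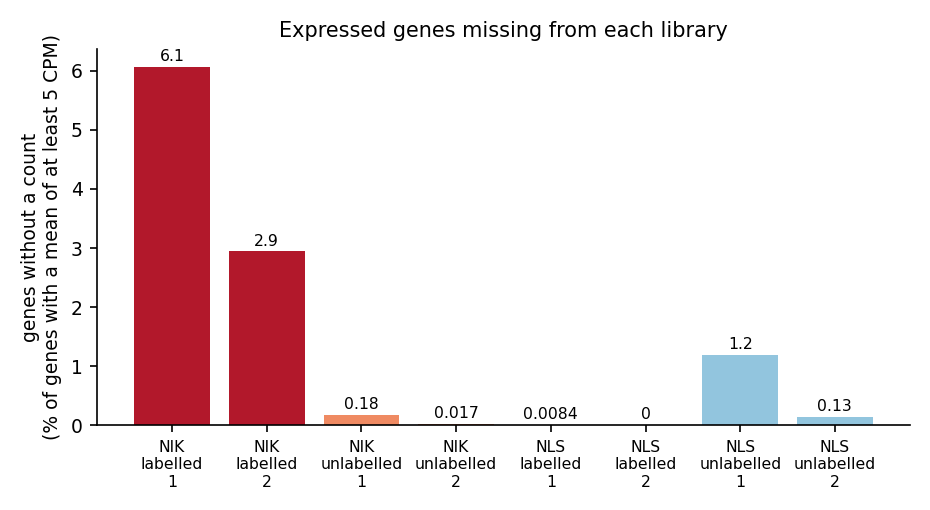
Share of genes without a count in each of the 8 libraries, in percent of the 11862 genes that averaged 5 CPM or more. Each bar is 1 library, and the tallest bars are those of the NIK labelled libraries, at 6.06% and 2.94%.

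The poly(A) RNAs that differed between labelled and unlabelled libraries overlapped between NIK and NLS, in both directions. Against their own unlabelled libraries, the NIK labelled libraries were higher in 382 of the 5052 well-expressed genes (7.56%) and lower in 568 (11.2%), and the NLS labelled libraries were higher in 721 (14.3%) and lower in 533 (10.6%). Called genes have an adjusted p under 0.05 by edgeR's quasi-likelihood test with Benjamini-Hochberg adjustment. These counts rest on a spread shared with the other groups of the table: fitted on their own 4 libraries, NIK had 0 called genes (2952 of 15172 at an unadjusted p under 0.05) and NLS had 4788 of 17961. Among all 22680 genes NIK had 1189 called genes, with 1100 without NIK labelled library 1, 2445 without NIK labelled library 2 and 626 and 547 without NIK unlabelled library 1 and 2, and NLS had 1179, with 439 to 647 without any 1 of its 4 libraries. In the shared fit, both constructs, which share no library, were higher in 239 genes, 62.6% of the NIK genes and 33.2% of the NLS genes. They were both lower in 251 genes, 44.2% of the NIK genes and 47.1% of the NLS genes. Only 3 genes were called in opposite directions, 1 higher in NIK and lower in NLS and 2 the other way round. Across the 5052 genes the log2 ratios of labelled over unlabelled of the 2 constructs had a Pearson correlation of 0.61 and a Spearman correlation of 0.56, as a description of genes that share depth and base composition. Their spread over genes was 0.60 for NIK and 0.69 for NLS (SD, log2). In these bulk libraries, less RNA of a kind in every cell and fewer cells with that RNA cannot be told apart.

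**Figure D2:**
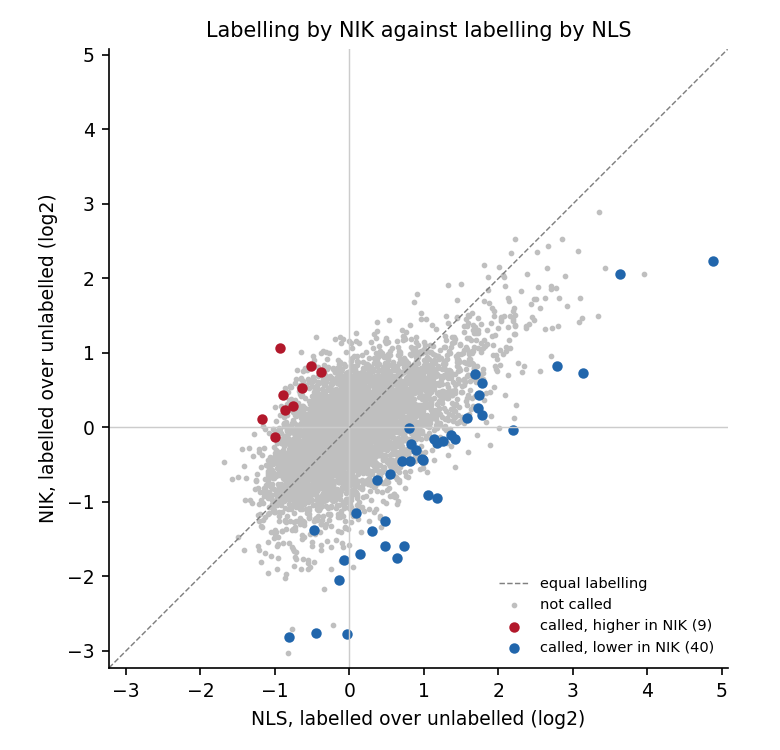
Log2 ratio of labelled over unlabelled libraries for each of 5052 well-expressed genes, NIK on the vertical axis and NLS on the horizontal axis, with the dashed line marking equal ratios. Red points are the 9 genes called higher and blue points the 40 genes called lower in NIK than in NLS labelling. The Pearson correlation over the genes is 0.61.

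Tested directly, as the NIK log2 ratio minus the NLS log2 ratio, labelling was higher with NIK for 9 well-expressed genes (0.178%) and lower for 40 (0.792%). The median of the difference over the 5052 genes was -0.09. All 49 kept their direction when any of the 8 libraries was left out, and the number called changed: 14 higher and 37 lower genes were called without NIK labelled library 1, 154 and 299 without NIK labelled library 2, and 0 without NIK unlabelled library 1 or 2, NLS labelled library 1 or 2 or NLS unlabelled library 1, each with 569 to 628 genes with an unadjusted p below 0.05. Without NLS unlabelled library 2, 2 lower genes were called. In the fit of all 22680 genes edgeR called all 9 higher but 17 of the 40 lower genes, and 16 of the 40 with DESeq2's size factors. Limma on the same genes and DESeq2 on 29165 genes called all 49, and a fit of only the 8 libraries called 0 of them (0 genes in all, with 3448 of 18555 genes at an unadjusted p under 0.05). The calls also depended on the level chosen for the fit. With genes averaging 20 CPM or more, 3 of the 9 and 5 of the 40 were called, and with 5 CPM or more, all 9 and 30 of the 40. A correction for GC content left 23 higher and 13 lower genes, among them 7 of the 9 and 11 of the 40.

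The 9 higher genes were PTGES3, EIF3E, SPAST, CUL4B, MTREX, TRAM1, ARL6IP5, HAT1 and BTF3. In each of them both NLS labelled libraries lay below both NLS unlabelled ones, and in PTGES3, SPAST, CUL4B, MTREX, TRAM1 and HAT1 both NIK labelled libraries lay above both NIK unlabelled ones. PTGES3 (chr12:56663341-56688408, minus strand), which encodes the Hsp90 co-chaperone p23, had 736 and 626 CPM in NIK labelled and 587 and 579 CPM in NIK unlabelled libraries, and 433 and 403 CPM in NLS labelled and 743 and 828 CPM in NLS unlabelled libraries. The difference was 1.04 ± 0.23 (log2 ± SE, edgeR adjusted p = 0.0331). The NLS part alone passed the test, at -0.76 (adjusted p = 0.000878), and the NIK part, 0.28, did not (adjusted p = 0.228). EIF3E (chr8:108201216-108435333, minus strand), a subunit of translation initiation factor eIF3, had 440 and 371 CPM in NIK labelled and 342 and 376 CPM in NIK unlabelled libraries, and 252 and 273 CPM in NLS labelled and 517 and 547 CPM in NLS unlabelled libraries. Its NLS labelled libraries were the lowest of the 8, and the NIK groups overlapped. The difference was 1.10 ± 0.24 (edgeR adjusted p = 0.0331).

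Of the 9 genes, NIK labelling itself passed the test for SPAST, CUL4B and HAT1. SPAST (chr2:32063547-32157637, plus strand), which encodes the microtubule-severing enzyme spastin, had 106 and 98.8 CPM in NIK labelled and 48.3 and 53.3 CPM in NIK unlabelled libraries, and 25.7 and 32.3 CPM in NLS labelled and 64.5 and 58.2 CPM in NLS unlabelled libraries. The NIK groups and the NLS groups each stayed apart, in opposite directions. Its difference was 2.00 ± 0.49 (edgeR adjusted p = 0.0403), with 1.07 in NIK (adjusted p = 0.0295) and -0.93 in NLS (adjusted p = 0.0497). CUL4B (chrX:120524609-120575794, minus strand), a cullin scaffold of ubiquitin ligases, had 411 and 272 CPM in NIK labelled and 196 and 208 CPM in NIK unlabelled libraries, and 142 and 141 CPM in NLS labelled and 230 and 222 CPM in NLS unlabelled libraries. Its difference was 1.34 ± 0.31 (edgeR adjusted p = 0.0356). MTREX (chr5:55307760-55425581, plus strand), the helicase that feeds RNA to the nuclear exosome, had 230 and 220 CPM in NIK labelled and 152 and 174 CPM in NIK unlabelled libraries, and 123 and 123 CPM in NLS labelled and 215 and 210 CPM in NLS unlabelled libraries. Its labelled libraries were higher than unlabelled ones with NIK and lower with NLS, with a difference of 1.16 ± 0.27 (edgeR adjusted p = 0.0356). The other 4 differences were 1.32 for TRAM1, a membrane protein at the translocon of the endoplasmic reticulum, 1.28 for ARL6IP5, another membrane protein of that organelle, 1.12 for the histone acetyltransferase HAT1 and 0.88 for BTF3, a subunit of the nascent polypeptide-associated complex. GCFC2, tested only among all 22680 genes, had 105 and 128 CPM in NIK labelled and 41.5 and 42.5 CPM in NIK unlabelled libraries, and 42.4 and 47.6 CPM in NLS labelled and 69.7 and 59.4 CPM in NLS unlabelled libraries. Its difference was 1.99 ± 0.44 (edgeR adjusted p = 0.0236).

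Among the lower genes described here, some had few counts in NIK labelled libraries and others had many in NLS labelled ones. ESS2 (chr22:19130279-19144684, minus strand), a protein found with the spliceosome, had 8.33 and 4.76 CPM in NIK labelled and 42.4 and 50.4 CPM in NIK unlabelled libraries, and 56.5 and 46.8 CPM in NLS labelled and 59.9 and 57.4 CPM in NLS unlabelled libraries. The NIK labelled libraries were the lowest of the 8, and the difference was -2.74 ± 0.55 (edgeR adjusted p = 0.0331). NECAP2 (chr1:16440672-16460078, plus strand), an endocytic adaptor-associated protein, had 7.58 and 11.9 CPM in NIK labelled and 73.7 and 64.5 CPM in NIK unlabelled libraries, and 35.0 and 38.5 CPM in NLS labelled and 44.4 and 67.5 CPM in NLS unlabelled libraries. As for ESS2, the NIK labelled libraries lay below all others, and the difference was -2.31 ± 0.49 (edgeR adjusted p = 0.0331). The gene of the axon guidance factor netrin-1, NTN1, had 7.68 and 26.9 CPM in NIK labelled and 64.7 and 57.5 CPM in NIK unlabelled libraries, and 56.7 and 46.5 CPM in NLS labelled and 37.2 and 36.5 CPM in NLS unlabelled libraries, and its difference was -2.39 ± 0.52.

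Other lower genes were high in NLS labelled libraries. GIGYF1 (chr7:100679507-100694037, minus strand), which encodes a protein that takes part in translational repression, had 128 and 154 CPM in NIK labelled and 95.0 and 71.2 CPM in NIK unlabelled libraries, and 314 and 309 CPM in NLS labelled and 47.6 and 52.8 CPM in NLS unlabelled libraries. Labelled libraries were the higher ones with both constructs, by 0.83 with NIK (edgeR adjusted p = 0.066) and by 2.79 with NLS (adjusted p = 4.27e-07), and the difference was -1.96 ± 0.45 (adjusted p = 0.0356). ONECUT2 (chr18:57435685-57491297, plus strand), a homeobox transcription factor, had 37.5 and 71.9 CPM in NIK labelled and 31.9 and 37.4 CPM in NIK unlabelled libraries, and 100 and 119 CPM in NLS labelled and 6.91 and 21.04 CPM in NLS unlabelled libraries. The NLS groups were far apart, though the NLS unlabelled libraries, at 6.91 and 21.04 CPM, differed from each other. NIK labelled library 1 lay just above NIK unlabelled library 2, and NIK labelled library 2 lay well above both unlabelled ones. Its difference was -2.40 ± 0.60 (edgeR adjusted p = 0.0403), and among all 22680 genes it was not called (adjusted p = 0.0653). DGKD, a diacylglycerol kinase, had 20.8 and 42.0 CPM in NIK labelled and 59.1 and 64.3 CPM in NIK unlabelled libraries, and 109 and 124 CPM in NLS labelled and 68.9 and 55.4 CPM in NLS unlabelled libraries, so that it moved down with NIK and up with NLS. The mitochondrial gene MT-ND6 was called lower as well, at -2.23 ± 0.48 (edgeR adjusted p = 0.0331). It lies opposite other mitochondrial transcripts, the sources used here do not state whether counting used the strand, and its unlabelled libraries already differed, so its value is uncertain. The remaining lower genes named by size were RBM38 at -1.91, G6PC3 at -2.01, KHNYN at -2.07, RPUSD4 at -2.13 and SLC35E2B at -2.31.

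The middle 150 bases of the coding sequence are shown for the largest higher gene, SPAST, for CUL4B, and for the lower genes ESS2 and ONECUT2, because the 9 higher and the 40 lower genes differed in base composition, with a median transcript GC content of 39.5% and 52.4%, against 47.0% over all well-expressed genes. G and C are in capitals; sequences are from GENCODE 29 (GRCh38), 5′ to 3′. Of the 150 bases, 58 are G or C in SPAST, 54 in CUL4B, 84 in ESS2 and 102 in ONECUT2, and over the whole coding sequence the G and C content is 47.8%, 39.8%, 62.3% and 66.2%.
SPAST: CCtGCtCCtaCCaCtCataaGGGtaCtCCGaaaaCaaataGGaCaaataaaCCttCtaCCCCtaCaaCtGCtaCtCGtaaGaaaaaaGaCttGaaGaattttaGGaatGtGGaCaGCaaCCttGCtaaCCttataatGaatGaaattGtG
CUL4B: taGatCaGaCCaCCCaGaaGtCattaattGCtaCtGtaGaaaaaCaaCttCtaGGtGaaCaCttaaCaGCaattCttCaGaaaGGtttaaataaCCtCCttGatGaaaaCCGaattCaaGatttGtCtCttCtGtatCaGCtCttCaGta
ESS2: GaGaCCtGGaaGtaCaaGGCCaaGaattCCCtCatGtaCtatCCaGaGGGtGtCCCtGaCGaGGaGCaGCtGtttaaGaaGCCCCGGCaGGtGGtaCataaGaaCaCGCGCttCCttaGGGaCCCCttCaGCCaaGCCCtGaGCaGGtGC
ONECUT2: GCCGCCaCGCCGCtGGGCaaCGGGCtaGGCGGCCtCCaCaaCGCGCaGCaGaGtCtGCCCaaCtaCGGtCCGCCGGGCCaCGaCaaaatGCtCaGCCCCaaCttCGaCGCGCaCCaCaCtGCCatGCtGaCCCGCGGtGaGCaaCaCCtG

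**Figure D3:**
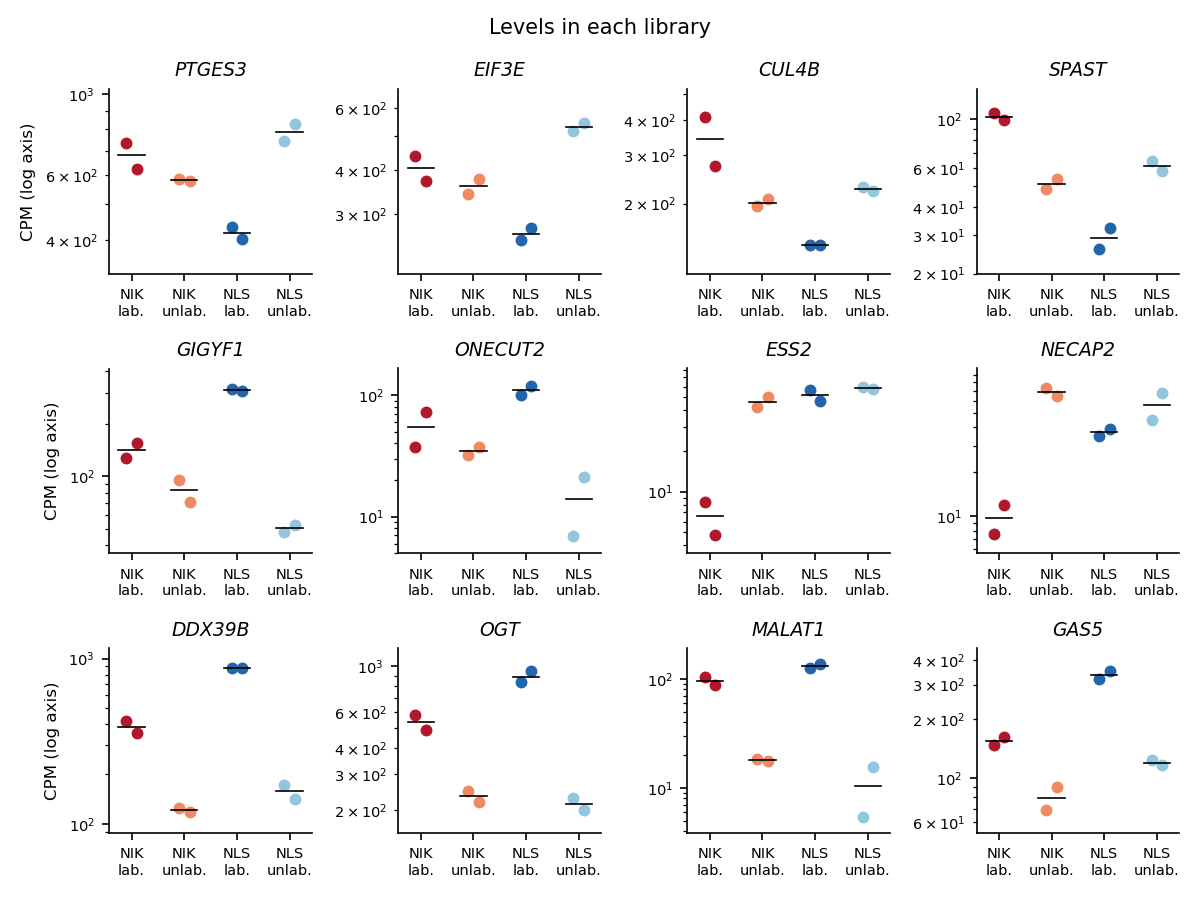
Level of 12 genes in each library, in CPM on a log axis; each point is 1 library, the bar is the group mean, and groups run from NIK labelled and unlabelled to NLS labelled and unlabelled. PTGES3, EIF3E, CUL4B and SPAST are lowest in NLS labelled libraries, and ESS2 and NECAP2 are lowest in NIK labelled libraries.

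Among all 22680 tested genes, 10 were higher (0.0441%) and 111 lower (0.489%) in NIK than in NLS labelling, with 3754 genes with an unadjusted p below 0.05. Of the 111 lower genes, 89 had at most 3 counts in a NIK labelled library, 78 had at most 3 counts in both, and 50 had none in both. Their median level was 11.0 CPM, and 17 of them were well-expressed. SEL1L3 had 0 and 0 counts in NIK labelled libraries and 374 and 396 counts in NIK unlabelled libraries, and 292 and 305 counts in NLS labelled and 450 and 430 counts in NLS unlabelled libraries (edgeR adjusted p = 4.3e-05). SLC8B1, a mitochondrial sodium and calcium exchanger, had 0 and 0 counts in NIK labelled and 190 and 190 counts in NIK unlabelled libraries, and 466 and 471 counts in NLS labelled and 286 and 183 counts in NLS unlabelled libraries (edgeR adjusted p = 5.7e-05). Ranking by fitted fold puts genes without a count in a group first. The 12 largest lower genes under the filters for named genes were all at 0 in both NIK labelled libraries. They had counts in the other groups, so no fold is given. Whether these RNAs escaped labelling or were lost from libraries that lacked many genes cannot be told apart here.

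The fractionation libraries, made without any labelling, gave a readout of nuclear retention. Of 19115 genes, 6535 were higher in the nuclear than in the cytosol fraction (34.2%) and 5323 were lower (27.8%, edgeR, adjusted p under 0.05). Both fusions labelled nuclear RNAs more and cytosolic RNAs less, and the range was narrower with NIK. For the 38 well-expressed genes with a nuclear over cytosol log2 ratio over 3, the median log2 ratio of labelled over unlabelled was 1.18 with NIK and 2.00 with NLS. For the 137 genes between 2 and 3 it was 0.39 with NIK and 1.01 with NLS, and for the 505 genes between 1 and 2 it was 0.17 and 0.57. For the 1244 genes between -2 and -1 it was -0.26 with NIK and -0.43 with NLS. The median difference between the constructs was 0.16 in that cytosolic range, -0.29 for the 1096 genes between 0 and 1 and -0.72 for those over 3. The same held in each labelled library: over the 175 genes with a ratio over 2 the medians were 0.47 and 0.39 in NIK libraries and 1.09 and 1.08 in NLS libraries, and over the 1309 genes under -1 they were -0.32 and -0.38 in NIK libraries and -0.55 and -0.60 in NLS libraries. Median transcript GC content was 46.3% in the most cytosolic range, 45.8% between -2 and -1 and 46.0% between -1 and 0. Above 0 it rose, from 48.3% between 0 and 1 to 59.9% in the most nuclear range. The part of GC content in the pattern was not tested.

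**Figure D4:**
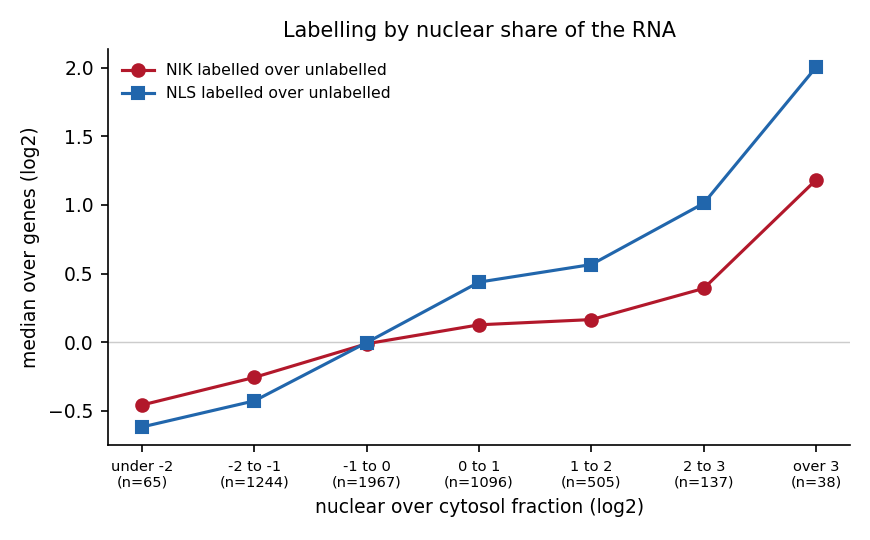
Median log2 ratio of labelled over unlabelled, NIK in red and NLS in blue, for 5052 well-expressed genes in 7 ranges of the nuclear over cytosol log2 ratio, with the number of genes under each range. NIK lies at 1.18 and NLS at 2.00 in the most nuclear range, and NIK lies above NLS in the 2 most cytosolic ranges.

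The called genes are given by the same readout, as a description. Of the 9 higher genes, 0 were nuclear and 6 cytosolic in the fractionation test, with a median ratio of -0.47, and of the 40 lower genes, 23 were nuclear and 3 cytosolic, with a median of 0.76. Of all 5052 well-expressed genes, 1118 were nuclear and 2421 cytosolic, with a median of -0.41. PTGES3 and EIF3E were both cytosolic, at -1.57 and -1.51, and GIGYF1 was nuclear at 4.15.

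Splicing regulators, many of whose transcripts are held in the nucleus with unspliced introns, had the highest median labelling of the protein-coding lists with both fusions. Of 42 well-expressed SR proteins, CLK kinases and detained-intron transcripts, 26 were higher and 0 lower in NIK labelled than in NIK unlabelled libraries, and 31 were higher and 0 lower with NLS, against 7.56% higher with NIK and 14.3% higher with NLS over all well-expressed genes. Their median log2 ratio was 0.74 with NIK and 1.46 with NLS. Between the fusions, 0 members were called higher and 1, ACIN1, lower, against 0.178% and 0.792% of all well-expressed genes. The difference had a median of -0.37, against -0.09 over all well-expressed genes. Over the alternatives the median stayed between -0.48 and -0.18. ACIN1, which encodes the apoptosis and splicing factor acinus, had 220 and 325 CPM in NIK labelled and 340 and 323 CPM in NIK unlabelled libraries, and 454 and 415 CPM in NLS labelled and 276 and 271 CPM in NLS unlabelled libraries. The NIK groups overlapped and the NLS groups did not, and the difference was -1.04 ± 0.23 (edgeR adjusted p = 0.0331). DDX39B, an RNA helicase of mRNA export, had 418 and 356 CPM in NIK labelled and 125 and 118 CPM in NIK unlabelled libraries, and 872 and 873 CPM in NLS labelled and 173 and 143 CPM in NLS unlabelled libraries. It was higher with NIK by 1.73 and with NLS by 2.62, and the difference of -0.89 did not pass the test (edgeR adjusted p = 0.102). OGT, the O-GlcNAc transferase, had 577 and 490 CPM in NIK labelled and 246 and 219 CPM in NIK unlabelled libraries, and 836 and 946 CPM in NLS labelled and 229 and 201 CPM in NLS unlabelled libraries, with a difference of -0.95 that did not pass either (edgeR adjusted p = 0.0868). DDX17, another helicase, had a difference of -0.75 (edgeR adjusted p = 0.142), with 2315 and 2077 CPM in NIK labelled libraries against 3012 and 3345 CPM in NLS labelled ones.

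Of 6 well-expressed long noncoding RNAs of the nucleus, 2 were higher in labelled libraries with NIK and 5 with NLS, against 7.56% with NIK and 14.3% with NLS of all well-expressed genes, and among all tested genes 3 and 5 of 23 were higher. MALAT1, a speckle-associated RNA, had 104 and 87.8 CPM in NIK labelled and 18.6 and 17.5 CPM in NIK unlabelled libraries, and 125 and 136 CPM in NLS labelled and 5.44 and 15.4 CPM in NLS unlabelled libraries. Among all 22680 genes it was higher with NIK by 2.41 (edgeR adjusted p = 0.0022) and with NLS by 3.65 (adjusted p = 2.19e-05), and the difference of -1.24 ± 0.67 did not pass (adjusted p = 0.364). NEAT1, the scaffold RNA of paraspeckles, had 78.7 and 276 CPM in NIK labelled and 52.9 and 38.7 CPM in NIK unlabelled libraries, and 325 and 336 CPM in NLS labelled and 64.4 and 34.4 CPM in NLS unlabelled libraries. The NIK labelled libraries differed widely from each other, and the difference of -0.86 did not pass (edgeR adjusted p = 0.491). Over the 6 RNAs the median log2 ratio was 0.43 with NIK and 0.78 with NLS. Over 9 RNAs named as antisense the medians were 0.48 with NIK, with 4 called higher against the 7.56% of all well-expressed genes, and 1.78 with NLS, with 8 called higher against 14.3%. Against 0.792% of all well-expressed genes, the direct test called 1 of the antisense RNAs lower. This was TP73-AS1, with 49.9 and 57.0 CPM in NIK labelled and 44.6 and 55.1 CPM in NIK unlabelled libraries, and 105 and 102 CPM in NLS labelled and 28.6 and 38.2 CPM in NLS unlabelled libraries (difference -1.62 ± 0.42, edgeR adjusted p = 0.0489). Without a stated strand setting, reads of an antisense RNA and of its partner gene may be mixed.

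In the direct test of NIK against NLS labelling, edgeR and limma called no transcript encoding a nucleolar ribosome biogenesis factor, and DESeq2 called 1. Of all 5052 well-expressed genes, edgeR called 0.178% higher and 0.792% lower in this test. Of 102 well-expressed factors edgeR called 0, which is near that share for a list of this size. At an unadjusted p below 0.05, 2 factors were higher and 9 lower, against 829 of the 5052 well-expressed genes in either direction. DESeq2 called 1 factor higher, against 184 higher and 1250 lower of the 29165 genes it tested. Limma called 0, against 40 higher and 595 lower of 22680 genes, and the median over the factors was -0.03. The same totals apply to the lists that follow. With NIK, 3 were higher and 5 lower than in unlabelled libraries, and with NLS 9 were higher and 6 lower, against 7.56% higher and 11.2% lower with NIK and 14.3% and 10.6% with NLS over all well-expressed genes. NCL, which encodes nucleolin, had 1944 and 1945 CPM in NIK labelled and 2381 and 2196 CPM in NIK unlabelled libraries, and 1878 and 1840 CPM in NLS labelled and 2229 and 2144 CPM in NLS unlabelled libraries. Both constructs had slightly lower labelled libraries, and the difference was -0.09 (edgeR adjusted p = 0.866), with a sign that changed between settings. NPM1, which encodes nucleophosmin, had a difference of 0.32 (edgeR adjusted p = 0.458). FBL, the fibrillarin methyltransferase gene, had 213 and 148 CPM in NIK labelled and 364 and 366 CPM in NIK unlabelled libraries, and 302 and 262 CPM in NLS labelled and 337 and 436 CPM in NLS unlabelled libraries. It was lower with NIK by -0.96 in log2 ratio (edgeR adjusted p = 0.000466), and its difference of -0.66 did not pass (adjusted p = 0.178). Of 11 RNA polymerase I genes edgeR called 0 in the direct test, 0 had an unadjusted p below 0.05, and DESeq2 and limma also called 0. Of 16 RNA polymerase III genes edgeR called 0, 1 was higher with an unadjusted p below 0.05, and DESeq2 called 1 higher.

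Nucleolar RNAs themselves were scarcely measured, so that the counts do not show the nucleolar label directly. Of 449 annotated small nucleolar and Cajal body RNAs, 133 had a count in any of the 8 libraries and 0 had a mean of 50 CPM. Their sum was 104 and 186 CPM in NIK labelled and 31.5 and 23.8 in NIK unlabelled libraries, and 193 and 185 in NLS labelled and 36.8 and 27.99 in NLS unlabelled libraries. Labelled libraries held more of them than unlabelled ones with both fusions, and NIK and NLS labelled libraries overlapped. The number of these RNAs with a count was 21 and 25 in NIK labelled and 18 and 25 in NIK unlabelled libraries. With NLS it was 110 and 105 in labelled and 18 and 22 in unlabelled libraries. Of all 60675 identifiers, 13634 and 14650 had a count in NIK labelled and 17045 and 18622 in NIK unlabelled libraries. With NLS these numbers were 22377 and 21520 in labelled and 15662 and 17223 in unlabelled libraries. Genes of all kinds were thus detected most often in NLS labelled libraries, and not only these RNAs. SNORA2C had 393 and 219 counts in NIK labelled and 0 in both NIK unlabelled libraries, and 19 and 4 counts in NLS labelled and 0 in both NLS unlabelled libraries. SNORA71B went the other way, with 0 and 0 counts in NIK labelled and 44 and 11 in NIK unlabelled libraries, and 222 and 244 in NLS labelled and 0 in both NLS unlabelled libraries. Both were chosen after their values were seen, and neither passed the test among all 22680 genes (edgeR adjusted p = 1.00 and 0.0659). The gene of the 5.8S ribosomal RNA that had counts, RNA5-8SN2, had 30 and 393 counts in NIK labelled libraries, 20 and 18 in NLS labelled libraries and 0 in the 4 unlabelled ones. RMRP, the RNA of a nucleolar ribonuclease, had 0.0359 and 2.69 CPM in NIK labelled and 0.793 and 0 CPM in NLS labelled libraries.

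Noncoding host genes of small nucleolar RNAs are spliced RNAs whose introns release those RNAs. Of 7 well-expressed ones, 4 were higher with NIK (7.56% of all well-expressed genes) and 4 higher and 1 lower with NLS (14.3% and 10.6%), with medians of 0.92 and 1.29. EdgeR, DESeq2 and limma called 0 in the direct test, where 0 had an unadjusted p below 0.05 (median -0.08). Over all well-expressed genes edgeR called 0.178% higher and 0.792% lower in that test. GAS5 had 147 and 162 CPM in NIK labelled and 68.7 and 90.1 CPM in NIK unlabelled libraries, and 319 and 354 CPM in NLS labelled and 123 and 116 CPM in NLS unlabelled libraries. Labelled libraries were higher with both fusions, and the difference of -0.62 did not pass (edgeR adjusted p = 0.438). SNHG1 had 166 and 182 CPM in NIK labelled and 94.3 and 98.7 CPM in NIK unlabelled libraries, and 391 and 443 CPM in NLS labelled and 208 and 165 CPM in NLS unlabelled libraries, with a difference of -0.40 (edgeR adjusted p = 0.617).

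Many messenger RNAs of cytosolic ribosomal proteins were lower in labelled libraries of both fusions. Of 76, 46 were lower and 0 higher with NIK and 47 were lower and 0 higher with NLS, against 11.2% lower with NIK and 10.6% lower with NLS over all well-expressed genes. The medians were -0.60 and -0.66. EdgeR called 0 in the direct test (median difference -0.00), against 0.178% higher and 0.792% lower over all well-expressed genes. Their levels were lower in the NIK than in the NLS line both with and without labelling. The median log2 ratio of NIK over NLS was -0.37 in labelled libraries, with 21 called lower (11.0% over all well-expressed genes). In unlabelled libraries it was -0.45, with 5 called lower (0.337%). At an unadjusted p below 0.05, 2 were higher and 2 lower, against 829 of the 5052 well-expressed genes in either direction. DESeq2 called 1 higher, against 184 higher and 1250 lower of 29165 genes. These totals also apply to the other lists of this paragraph. RPS18 had 487 and 462 CPM in NIK labelled and 839 and 797 CPM in NIK unlabelled libraries, and 552 and 467 CPM in NLS labelled and 1248 and 1462 CPM in NLS unlabelled libraries. Labelled libraries were lower with both fusions, and the unlabelled ones differed between the lines. Of 61 translation factors, 12 were lower and 1 higher with NIK and 19 were lower and 2 higher with NLS, where 11.2% and 10.6% of all well-expressed genes were lower. The direct test called 1 higher, EIF3E (median 0.22), against 0.178% of all well-expressed genes. The 8 members of the CCT chaperonin had a median difference of 0.37 and the 13 heat shock and oxidative stress genes one of 0.42, with 0 called by edgeR in either list, 3 higher with an unadjusted p below 0.05 in each, and 2 and 1 called higher by DESeq2. Of 58 solute carrier genes, edgeR called 2 lower, against 0.792% of all well-expressed genes, and DESeq2 called 1 higher and 3 lower. The 2 were SLC23A2, a vitamin C transporter, at -1.16 (edgeR adjusted p = 0.0401), and SLC41A1, a magnesium transporter, at -1.43 (adjusted p = 0.0403).

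GC content of the transcript ordered the difference between the fusions. In the 1010 well-expressed genes of lowest GC content (31.3% to 40.5%) the median difference was 0.21, with 6 genes called higher and 1 lower, and in the 1010 of highest GC content (56.3% to 69.2%) it was -0.43, with 0 called higher and 13 lower. NIK labelling itself followed GC content, with medians of 0.35 in the GC-poorest and -0.30 in the GC-richest genes, and NLS labelling did so little, with 0.07 and 0.09. Across 5050 genes with a value, the Spearman correlation with GC content was -0.39 for NIK labelling, -0.01 for NLS labelling and -0.41 for the difference, as a description. By library, the median level of the GC-richest genes relative to the GC-poorest was -0.76 and -0.79 in NIK labelled, -0.21 and -0.11 in NIK unlabelled, 0.22 and -0.06 in NLS labelled and 0.03 and 0.04 in NLS unlabelled libraries (log2, relative to the mean of the 36 libraries). Over all 36 libraries this value ran from -1.10 in an unlabelled library of another construct, NES, to 0.74. Transcript length, by contrast, went with labelling by both fusions, with Spearman correlations of 0.42 for NIK and 0.51 for NLS and of -0.14 for the difference. For NIK over NLS it was 0.18 in labelled and 0.48 in unlabelled libraries. The unlabelled libraries that enter the difference therefore differed by length themselves. A fit with a GC term per library called 23 higher and 13 lower genes in place of 9 and 40. Under this fit the median over all well-expressed genes was 0.08, in place of -0.09, and that of the 42 splicing regulators was -0.39. Such a term also takes out any labelling difference that goes with GC content. The part of GC content in the calls was not tested.

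**Figure D5:**
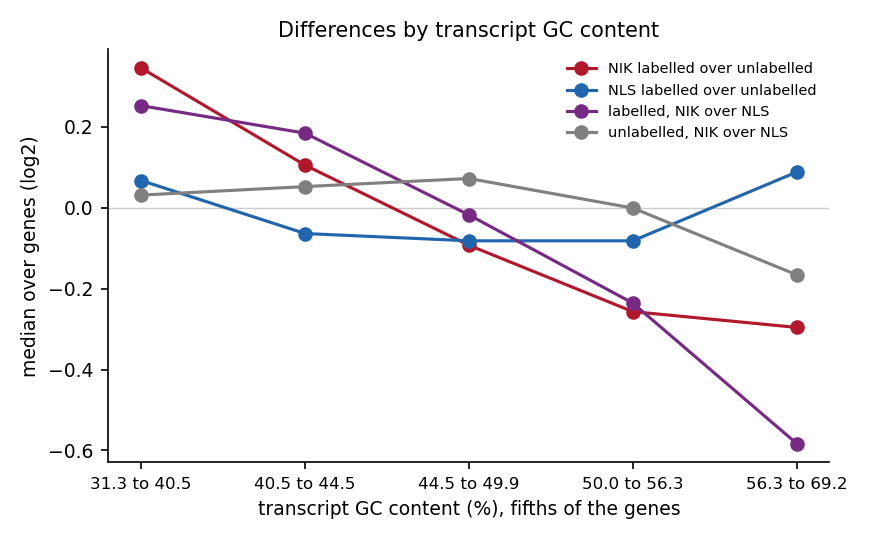
Median log2 value over the genes in 5 equal classes of transcript GC content, for NIK and NLS labelled over unlabelled libraries and for NIK over NLS in labelled and in unlabelled libraries. NIK falls from 0.35 in the GC-poorest to -0.30 in the GC-richest class and NLS stays between -0.08 and 0.09.

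Set against each other without the unlabelled libraries, NIK labelled libraries were higher than NLS labelled ones in 294 well-expressed genes (5.82%) and lower in 556 (11.0%); this comparison includes any difference between the cell lines. Of the higher genes, 132 lay in the GC-poorest and 1 in the GC-richest class, and of the lower genes, 22 and 285. In the fractionation test, 48 of the higher genes were nuclear and 173 cytosolic, and 196 of the lower genes were nuclear and 201 cytosolic. CANX, which encodes the endoplasmic reticulum chaperone calnexin, had 1789 and 1530 CPM in NIK labelled and 830 and 808 CPM in NLS labelled libraries, a log2 ratio of 0.95 (edgeR adjusted p = 0.000338). Carboxypeptidase D, encoded by CPD, had 189 and 174 CPM in NIK labelled and 66.8 and 68.7 CPM in NLS labelled libraries, a log2 ratio of 1.36. HSF1, the heat shock transcription factor, was lower by a log2 ratio of -2.31. Without NLS labelled library 1 the counts were 27 higher and 118 lower, and without NLS labelled library 2 they were 58 and 231. Without NIK labelled library 2 they were 504 and 638, without NIK labelled library 1 they were 209 and 319, and with a GC term per library they were 325 and 222.

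The unlabelled libraries of the 2 lines differed in 26 higher (0.515%) and 17 lower (0.337%) well-expressed genes. They also differed by transcript length without single genes being called. The median log2 ratio of NIK over NLS was -0.26 in the 1010 shortest and 0.25 in the 1010 longest well-expressed transcripts. Among all 22680 genes edgeR called 9, limma 24 and DESeq2 287, and edgeR called 0 without NIK unlabelled library 1 or 2 or NLS unlabelled library 1 (904, 1231 and 707 genes at an unadjusted p under 0.05) and 34 without NLS unlabelled library 2. Mitochondrial RNAs led the higher ones. MT-ND5 had 3812 and 3617 CPM in NIK and 1112 and 940 CPM in NLS unlabelled libraries, a log2 ratio of 1.88 (edgeR adjusted p = 0.00752), and MT-CO1 had 10523 and 10842 CPM in NIK and 4322 and 3605 CPM in NLS unlabelled libraries, a log2 ratio of 1.46 (adjusted p = 0.00894). Of 13 mitochondrial messenger RNAs 3 were called higher, and mitochondrial genes held 3.73% and 3.64% of counts in NIK and 2.10% and 1.65% in NLS unlabelled libraries. NEFM, a neurofilament gene expressed in HEK293T cells, had 119 and 114 CPM in NIK and 44.7 and 44.8 CPM in NLS unlabelled libraries. Among the genes lower in NIK was the ribosomal protein gene RPL35, with 335 and 361 CPM in NIK and 678 and 672 CPM in NLS unlabelled libraries (log2 ratio -0.93, edgeR adjusted p = 0.0153).

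The lamina construct LMA shares the NIK libraries in its own comparison, so its values are given side by side. Labelling with NIK was higher than with LMA for 13 well-expressed genes (0.257%) and lower for 123 (2.43%). A fit of only the NIK and LMA libraries called 0 genes (3191 of 19101 at an unadjusted p under 0.05). Among all 22680 genes 193 were called, with 1557 without NIK labelled library 2, 81 and 77 without NIK unlabelled library 1 and 2, 96 and 106 without LMA labelled library 1 and 2 and 97 without LMA unlabelled library 1. ONECUT2 was -2.12 against LMA and -2.40 against NLS, KHNYN was -3.03 and -2.07, NECAP2 was -2.21 and -2.31, and BTF3 was 0.89 and 0.88. GIGYF1 was -0.17 against LMA and -1.96 against NLS. The Spearman correlation of the difference with GC content was 0.11 against LMA and -0.41 against NLS. With transcript length it was -0.39 against LMA and -0.14 against NLS.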

How the data were processed

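Poly(A)-selected RNA was sequenced from HEK293T cells expressing APEX2 fusions. The deposited counts per gene are whole numbers; STAR and HTSeq, with Trimmomatic, SAMtools, bedtools and DESeq2, are listed with GRCh38 (hg38) in the submitters' processing notes, with no role or version. Whether counting used the strand is not given in the sources used here. Gene names and transcripts came from GENCODE 29, which named 57055 of 60675 identifiers. The members, the 31 gene lists and the comparisons were chosen with earlier results of these data known.

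All comparisons of fusions came from 1 model of group means over the 36 libraries of the table (18 groups of 2), in R 4.3.3 with edgeR 4.0.16: scaling factors by TMM, filterByExpr at its defaults, a trended dispersion, the quasi-likelihood F test and Benjamini-Hochberg adjustment over all genes fitted, with an adjusted p under 0.05 called. The labels call the libraries of a group biological replicates without naming separate cultures, so p-values measure the spread between those libraries, which may be technical. The fit was repeated on the 5052 genes averaging 50 CPM or more over the 36 libraries. This was chosen after seeing the data, for 2 reasons. NIK labelled libraries lacked many expressed genes, and the dispersion of this fit was 0.042 against 0.768 for all 22680 genes. Named CPM are TMM-scaled. Sums over marker and small RNA lists are CPM without that scaling, and so are the single kidney and neuronal marker levels given beside the marker sums. The standard error is the absolute log2 ratio over the square root of F. The fractions were fitted alone. Genes were named if they were among up to 12 of the largest higher and lower called genes, up to 6 for labelled and 4 for unlabelled libraries, up to 4 members of a list with the smallest p, or landmark genes; the same rule was applied in the well-expressed fit. Genes named by size needed a mean of at least 5 CPM over the 8 libraries and the same direction in both replicate numbers; list members, landmark genes, markers and small noncoding RNAs did not. GC content is that of the longest transcript. The steps were tested on simulated data. Alternatives were DESeq2 1.42.0 with summed counts of at least 10, limma 3.58.1 on log2 CPM (prior count 2), other size factors and filters, only the libraries compared, a replicate block, a GC term (loess with a span of 0.5) and leaving out each library. A gene withheld for evaluation is not reported here.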

Additional observations from a re-analysis of the deposited data

Results flagged for a closer look

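The test of the difference between NIK and NLS labelling marked the 30 genes that were named from it among all 22680 tested genes, each with an edgeR adjusted p under 0.05 for the difference of the 2 labelling ratios (n = 2 libraries in each group, quasi-likelihood test). No explanation for them was weighed. Labelling was higher with NIK than with NLS for 10 genes, with adjusted p-values of 0.0182 for PTGES3, 0.0214 for EIF3E, 0.0236 for GCFC2, 0.0354 for CUL4B and 0.0377 for MTREX, and of 0.0426 for TRAM1, 0.0448 for SPAST, 0.046 for ARL6IP5, 0.046 for BTF3 and 0.046 for HAT1. Labelling was lower with NIK than with NLS, with 0 counts in both NIK labelled libraries, for 12 genes, with adjusted p-values of 4.3e-05 for SEL1L3, 5.7e-05 for SLC8B1, 0.000456 for FBLIM1, 0.000837 for BMF, 0.00264 for DECR1 and 0.0118 for PELI3, and of 0.0135 for DUBR, 0.0208 for RETREG1, 0.0232 for DHRS4L2, 0.0236 for KRCC1, 0.0251 for CCDC157 and 0.0377 for XK. It was lower with NIK, with counts in both NIK labelled libraries, for 8 genes, with adjusted p-values of 0.0169 for ESS2, 0.0214 for MT-ND6, 0.0222 for NECAP2, 0.0236 for NTN1, 0.0308 for DGKD, 0.0354 for GIGYF1, 0.0452 for G6PC3 and 0.0467 for RBM38.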

How the results depend on the processing

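The number of genes called depended on the tool, on the genes fitted and on single libraries. For NIK minus NLS labelling, 121 of 22680 genes were called; DESeq2 called 1434, no filter on low counts 289, limma 635, a fit of only the 8 libraries 0 (with 3448 of 18555 genes at an unadjusted p under 0.05), genes of at least 20 CPM 16, at least 50 CPM 49, and those with a GC term 36. For NIK against NLS labelled libraries, 843 were called; DESeq2 called 2798, only those libraries 1722, limma 2887, genes of at least 50 CPM 850 and those with a GC term 547. For the unlabelled libraries, 9 were called; DESeq2 called 287, no filter 73, limma 24, genes of at least 50 CPM 43 and those with a GC term 76. For NIK labelled against unlabelled, 1189 were called; DESeq2 called 2894, only those libraries 0 (with 2952 genes at an unadjusted p under 0.05), genes of at least 50 CPM 950 and those with a GC term 782. For NLS labelled against unlabelled, 1179 were called; DESeq2 called 2344, only those libraries 4788, limma 2457 and a fold threshold of 1 (log2) 775. For NIK minus LMA labelling, 193 were called; DESeq2 called 1590, no filter 435, only those libraries 0 (with 3191 genes at an unadjusted p under 0.05), limma 984 and genes of at least 20 CPM 94. The cause of these shifts was not tested.

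With a library left out in turn, the calls ranged from 28 to 1473 for NIK minus NLS labelling, from 257 to 2396 for NIK against NLS labelled libraries, from 0 to 34 for the unlabelled libraries (with 707 genes or more at an unadjusted p under 0.05), from 547 to 2445 for NIK labelling, from 439 to 647 for NLS labelling, from 77 to 1557 for NIK minus LMA labelling and from 8424 to 12511 for the fractions. A group left with 1 library was assumed to vary like the others. Among genes of at least 50 CPM they ranged from 0 to 453 for NIK minus NLS labelling and from 145 to 1142 for the labelled libraries, with 51 and 528 without NIK labelled library 1, and the number of calls was highest without NIK labelled library 2. The fraction count of 11858 stayed within 1.5 times under all other alternatives.

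The replicate numbers do not pair the libraries: deviations of same-numbered NIK labelled and unlabelled libraries correlated at 0.002 and those of NLS at -0.039, and the 9 constructs ranged from -0.234 to 0.077. With the replicate number as a block, 291 genes were called for NIK minus NLS labelling, 386 for NIK minus LMA labelling, 1495 for NIK labelling, 1306 for NLS labelling, 12116 for the fractions and, as a block across constructs, 853 for labelled and 10 for unlabelled libraries.

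Of the values of single genes under the alternatives, 790 kept direction and side of the threshold, 306 were no longer called, 37 became called and 15 reversed. All 15 were NCL, which was not called in any of them (edgeR adjusted p = 0.866 among well-expressed genes): its difference was -0.00 among all genes, 0.0134 with DESeq2 and with other size factors, 0.0185 with no filter, 0.102 in only the 8 libraries, 2.122e-05 with limma, 1.816e-05 with the replicate block, 0.0217 among genes of at least 5 CPM, 0.0846 with the GC term, -0.0327 to 0.0658 with a library left out among all genes and -0.129 to 0.0125 with a library left out among well-expressed genes. Total counts do not separate the libraries that lacked genes: of the genes of at least 5 CPM, 6.06% and 2.94% had no count in NIK labelled libraries of 26.2 and 21.2 times 1000000 counts, and 0.00843% and 0% in NLS labelled libraries of 23.6 and 24.7 times 1000000 counts. Depth limits single genes with few counts, for which no fold is given.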

Other observations

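Chromosomes 13, 14, 15, 21 and 22, whose short arms carry the ribosomal RNA gene clusters, held 612 well-expressed genes. Their median difference between NIK and NLS labelling was -0.09, with 0 genes called higher and 11 lower, and the 4425 genes of the other nuclear chromosomes had the same median of -0.09, with 9 called higher and 28 lower. Of the 11 genes, 7 lie on chromosome 22, where the median was -0.33 and the median transcript GC content 54.1%. Chromosome 19 had a median of -0.31 at 59.1% GC and 0 called genes, and chromosome 4 had a median of 0.16 at 42.6% GC and 0 called genes. The part of GC content in these values was not tested.

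By type of gene, 138 well-expressed pseudogenes had a median difference of 0.13, with a median log2 ratio of labelled over unlabelled of -0.58 with NIK and -0.69 with NLS, and 24 noncoding RNAs had one of -0.61, with 0.89 with NIK and 1.34 with NLS. Zinc finger genes, whose transcripts are often retained in the nucleus, had medians of 0.43 with NIK, with 15 of 51 called higher and 1 lower, and of 0.73 with NLS, with 23 higher and 0 lower, against 7.56% higher with NIK and 14.3% higher with NLS over all well-expressed genes.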
